A study of Drosophila melanogaster with 4 samples.

Results

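The genes described here are 7 genes of sex determination and dosage compensation in Drosophila melanogaster: lncRNA:roX1, lncRNA:roX2, msl-2, mle, Sxl, tra and dsx. They were chosen by name, and every ATAC-seq peak that overlapped the annotated span of a gene or the 2000 bp on either side of it was taken. All 7 were matched in a table of 17684 genes on the main chromosome arms. The peaks at them formed 42 merged regions (intervals of the 4 lists joined where they shared at least 1 bp) of 44429 on the main arms. ATAC-seq maps open chromatin by letting a transposase cut and tag accessible DNA.

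Nuclei came from thoracic muscle enriched for flight muscle, taken from pharate animals (adults formed but still inside the pupal case) 96 h after pupa formation at 25 °C. The controls (control 1 and 2) had the genotype w[1118]. The mutants (mutant 1 and 2) were w[1118];Pgk[Delta.E2F]; + line 12, in which an E2F binding site upstream of Pgk, the phosphoglycerate kinase gene, is mutated, so both groups carry the w[1118] allele and the mutant is represented by 1 line. Each library pooled at least 40 animals, and the labels used here do not give their sex. Nothing in the labels says whether same-numbered libraries were prepared together, and p-values measure only the spread between these libraries, which may be technical.

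In Drosophila, Sxl (Sex-lethal) is the switch of sex determination: an RNA-binding protein made in females that directs the splicing of its own transcript and of tra, and that blocks the production of MSL-2. The splicing factor Tra in turn sets the splicing of dsx, which encodes female and male forms of a transcription factor. In males, which lack functional Sxl protein, MSL-2 assembles with the RNA helicase MLE, other proteins and the noncoding roX RNAs into the MSL complex, which binds the X and raises its transcription. The roX genes lie on the X, are transcribed mainly in males, and are themselves known binding sites of that complex. Open chromatin at them was therefore set beside that of the Y chromosome, which males alone carry in a regular cross. Without libraries of known sex, how far either tells male from female nuclei was not tested.

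The lists held 30300 peaks in control 1, 30787 in control 2, 26186 in mutant 1 and 26880 in mutant 2. As a measure of depth, the most common fragment background recovered from each list was 7.44 for control 1, 7.61 for control 2, 4.62 for mutant 1 and 5.26 for mutant 2. Between 37.4% and 45.6% of the X or autosomal peaks of a library sat at that value. The local background of a single peak could be higher, as at 9.88 past roX2 in control 1. For each result below the part played by depth was not tested. With 2 libraries against 2, a two-sided exact permutation test has 6 labelings and cannot give a p below 0.3333. Peak strength was expressed as rank: the percentage of the library's own list at or above the peak by the authors' −log10 p, so that a low percentage is a strong peak. The annotation gave no strand, so left and right mean lower and higher coordinates.

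At lncRNA:roX1 (X:3857230-3862697, a noncoding RNA gene) open chromatin was called in all 4 libraries at the same pair of places, inside the gene and at its right end. The inner region, X:3861238-3861475, begins 4008 bp from the left end of the gene and overlaps no other annotated gene. Its peak ranked at 16.3% in control 1, 18.6% in control 2, 14.1% in mutant 1 and 27.0% in mutant 2. Mutant 1 was thus the strongest of the 4 libraries there and mutant 2 the weakest, and the groups overlapped. The fragment pileup at the summit, recovered from the authors' fold enrichment and −log10 p, was 87 in control 1, 70 in control 2, 43 in mutant 1 and 42 in mutant 2. Divided by the local background of the same library, the pileups were 11.7 (95% exact Poisson interval 9.36 to 14.4, counting error only), 9.20 (7.17 to 11.6), 9.30 (6.73 to 12.5) and 7.98 (5.75 to 10.8), intervals that all overlap.

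The second roX1 region, X:3862696-3862824, sits at the right end of the gene, with summits 52 to 67 bp beyond it and 268 bp between roX1 and the next gene, yin. It ranked at 15.5% and 16.1% in controls 1 and 2, 38.2% in mutant 1 and 19.1% in mutant 2. Both mutants were weaker than both controls, by 12.8 percentage points on average (controls 15.8%, mutants 28.6%; exact permutation test, p = 0.3333), and mutant 1 made most of that difference. The pileup there was, in the same order, 90, 77, 26 and 52 fragments, or 12.1, 10.1, 5.62 and 9.88 times the local background. The Poisson interval of mutant 1 (3.67 to 8.24) lies below that of control 1 (9.72 to 14.9) and overlaps those of control 2 (7.98 to 12.6) and mutant 2 (7.38 to 13.0). Mutant 1 therefore held the strongest rank of the 4 libraries at the inner region and the weakest at the end of the same gene. The remaining region of roX1, X:3862451-3862525, was called only in control 1, at 78.1%.

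At lncRNA:roX2 (X:11579065-11580432, the second noncoding RNA gene of the complex) the strongest region lay outside the annotated gene. This region, X:11580536-11580818, begins 104 bp past the right end of roX2, and its right part overlaps the left end of nod, a neighbouring gene that encodes a kinesin-like protein. The lists do not show to which of these genes the open site belongs. It ranked at 11.4% in control 1, 17.8% in control 2, 30.3% in mutant 1 and 53.8% in mutant 2, so both mutants were weaker than both controls. Its peak was also wider in the controls, 282 and 281 bp, than in the mutants, 90 and 98 bp, with summits within 13 bp of each other. The summit pileup was 119 fragments in control 1, 78 in control 2, 35 in mutant 1 and 30 in mutant 2. Over the local background these were 12.0 (95% exact Poisson interval 9.98 to 14.4), 8.48 (6.71 to 10.6), 5.22 (3.63 to 7.26) and 4.78 (3.22 to 6.82). The intervals of control 2 and of the mutants overlap, and those of control 1 and the mutants do not.

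The left end of roX2 carried a second, weaker region, X:11579008-11579091, whose summits lay 13 to 15 bp left of the gene. It ranked at 40.2% in control 1, 30.3% in control 2 and 37.3% in mutant 1, and was not called in mutant 2. Its mean enrichment in the 3 libraries that had it, scaled to the most common background of mutant 2, corresponds to 26.5 fragments. The smallest pileup called at that background in mutant 2 was 15. The local background here was higher than the most common one, at 10.4, 9.81 and 7.31 in controls 1 and 2 and mutant 1. A mean over libraries that called a region also mostly exceeds such a bar. The comparison thus does not measure the part of depth in the missing call, which was not tested. A further region, X:11578255-11578484, overlaps the neighbouring gene CG11695 and was called only in mutant 1, at 88.9%.

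**Figure D1:**
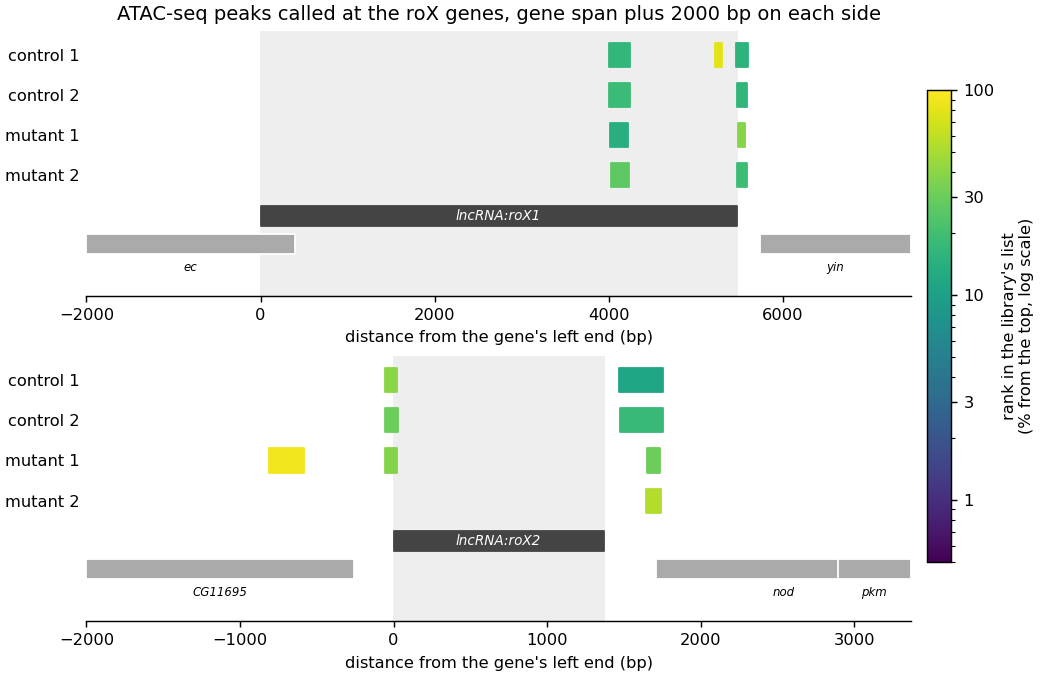
Peaks called at lncRNA:roX1 (top) and lncRNA:roX2 (bottom) in each library, by distance in bp from the left end of the gene; the grey area is the gene, grey bars are neighbouring genes, and the colour gives the rank of the peak in its own list (log scale, dark is strong). The inner roX1 peak and the peak past the right end of roX2 are present in all 4 libraries, the latter narrower and lower in rank in the mutants, and the peak at the left end of roX2 is missing in mutant 2.

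**Figure D2:**
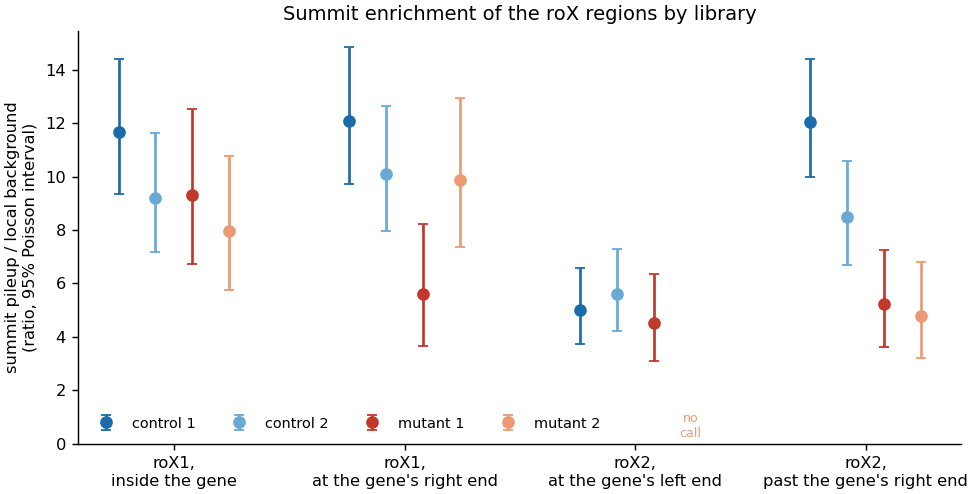
Summit pileup divided by the local background of the same library at the 4 roX regions called in at least 3 libraries; points are libraries and bars are 95% exact Poisson intervals of the pileup, which cover counting error only. Inside roX1 all intervals overlap, whereas past the right end of roX2 control 1 (12.0) lies above mutant 1 (5.22) and mutant 2 (4.78).

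Taking the strongest peak of each window, roX1 stood at 15.5%, 16.1%, 14.1% and 19.1% in controls 1 and 2 and mutants 1 and 2, a mean of 15.8% ± 0.454 (SD, n = 2) against 16.6% ± 3.497 (SD, n = 2). The mutant 1 value is that of the inner region and the other 3 are those of the right-end region, so this measure compares different sites. Its difference of 0.79 points was smaller than the spread between the mutants (exact permutation test, p = 1). With 1 region held fixed the mutants were weaker by 3.11 points at the inner region (17.5% and 20.6%; exact permutation test, p = 1) and by the 12.8 points given above at the right end. The mixed difference turned to -1.68 without mutant 2 and to -1.59 with lists of equal length. For roX2 the means were 14.6% ± 4.52 in the controls and 42.1% ± 16.6 in the mutants (SD, n = 2). The difference of 27.5 points (exact permutation test, p = 0.3333, the smallest possible) was larger than either spread. It ranged from 15.7 points without mutant 2 to 39.2 without mutant 1, with the mutant side weaker in every case. A strongest peak weaker in both mutants than in both controls was common in these lists: it was seen in 46.0% of the 10814 genes with a peak in all 4 libraries, against 6.3% with the reverse order. Among the 7 genes it was seen at roX2 and mle, 2 of 7 (28.6%), and in both the peak lies outside the gene. So few genes cannot show a difference from that background.

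The roX regions were middling among open sites of the X. Of 2388 X regions called in all 4 libraries, 43.3% had a better mean rank than the inner roX1 region, 48.0% a better one than the region at its end and 58.1% a better one than the region past roX2. The median X region had a mean rank of 23.3%, against 19.0%, 22.2% and 28.3% for the 3 roX regions in that order.

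The genes of the main arms whose strongest peaks followed roX1 most closely across the 4 lists were CG31139 and rumi, which share a peak, CG1161 and Prosbeta7, which share another, and chb. Likeness was the sum over the 4 libraries of the differences in log10 rank, which ran from 0.06 to 0.08 for these 5 of 10812 genes. For roX2 they were Arl4 (0.15), PEK (0.23), CG7362 (0.24), and Atg4b and Hibch (0.24), which share a peak, of 10811 genes. None of these 10 genes lies on the X.

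Of the genes for proteins of the MSL complex, msl-2 (2L:3462218-3466112), which encodes the subunit that males alone normally make, had its strongest region at its right end. The region, 2L:3466061-3466190, spans the 44 bp between msl-2 and ND-PDSW, a subunit gene of respiratory complex I, and overlaps both. It ranked at 12.6% and 15.3% in controls 1 and 2, 10.6% in mutant 1 and 37.2% in mutant 2. Mutant 1 was the strongest library and mutant 2 the weakest (difference of group means 9.97 points, exact permutation test, p = 1). Without mutant 2 the difference was -3.33 points, so that library alone set its direction. The pileups were 110, 86, 55 and 37 fragments in controls 1 and 2 and mutants 1 and 2, which is 11.9, 9.23, 8.93 and 6.18 times the local background.

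Inside msl-2, the region 2L:3465619-3465790 was called in all 4 libraries, at 42.6%, 36.3%, 50.9% and 53.9% in controls 1 and 2 and mutants 1 and 2. Here both mutants were weaker than both controls (12.9 points, exact permutation test, p = 0.3333), while the enrichments over local background, 4.998, 4.93, 4.14 and 4.77, had overlapping Poisson intervals. The other 5 regions of the msl-2 window were weak, with ranks between 69.05% and 93.5%. They were called in 1 to 3 libraries each, and none of them in both libraries of 1 genotype only.

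At mle (2R:5974857-5980778), which encodes the RNA helicase that loads roX RNA into the complex, the strongest open site of the window lay outside the gene. The region 2R:5982049-5982709 begins 1271 bp past the right end of mle and lies inside Src42A, a Src family kinase gene. It ranked at 2.31% in control 1, 2.51% in control 2, 4.41% in mutant 1 and 5.44% in mutant 2 (difference 2.51 points, exact permutation test, p = 0.3333), with pileups of 206, 181, 72 and 92 fragments. In the mutants it was split into a strong and a weak peak, the weak ones at 72.05% and 65.0%. Within mle itself peaks were weak: 2R:5980220-5980436 ranked at 66.3%, 44.7% and 74.1% in controls 1 and 2 and mutant 1, and 2R:5978108-5978230 at 83.5% in control 1 and 82.3% in mutant 1. Mutant 2 had no peak touching mle. Of the other regions, 2R:5974032-5974237 lies in BubR1, a spindle checkpoint gene, at 87.4% in control 2 and 86.4% in mutant 1, and 2R:5981828-5981892 in Src42A, called in control 1 alone at 46.8%.

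Sxl (X:7074550-7098053), the switch gene, was most open near its right end. The region X:7097044-7097350, inside the gene with summits 891 to 893 bp from that end, ranked at 6.91% and 5.91% in controls 1 and 2, 9.55% in mutant 1 and 6.55% in mutant 2. The groups overlapped (difference 1.64 points, exact permutation test, p = 0.667), and without mutant 1 the difference was 0.135 points. The pileups were 141, 130, 52 and 86 fragments, or 16.7, 16.6, 11.2 and 16.3 times the local background, lowest in mutant 1, whose Poisson interval (8.40 to 14.7) overlaps that of each other library. Only 16.2% of the X regions of all 4 libraries had a better mean rank than this one, which placed it above the roX regions. At the right end itself, X:7098005-7098182 ranked at 17.7%, 18.9%, 29.1% and 22.3% in controls 1 and 2 and mutants 1 and 2, with both mutants weaker than both controls (7.35 points, exact permutation test, p = 0.3333).

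The rest of Sxl was called in fewer libraries. At the left end, X:7074433-7074548 ranked at 18.7% in control 1, 27.9% in control 2 and 27.0% in mutant 2, with pileups of 79, 52 and 42 fragments, and was absent from the list of mutant 1. Its mean enrichment of 8.48 in those 3 libraries, scaled to the most common background of mutant 1, corresponds to 39.2 fragments, whereas the smallest pileup called at that background was 14. As at roX2, this comparison does not measure the part of depth in the missing call, which was not tested. X:7082480-7082632, within the gene, was likewise called in all but mutant 1, at 44.5%, 46.0% and 68.8%. The 2 control-only regions of the 7 genes, called in each control but no mutant, were both here: X:7095418-7095602, at 51.8% and 91.4%, and X:7073246-7073360, outside the gene, at 65.6% and 91.4%. X:7097672-7097744 was called in control 1 alone, at 75.8%. Mutant 1 thus had 2 peaks at Sxl, against 7 and 6 in controls 1 and 2 and 4 in mutant 2.

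At tra (3L:16590059-16591050), whose transcript Sxl splices, no library had a peak touching the gene. A strong region, 3L:16588146-16588327, ends 1732 bp to the left of tra, between CG32163 and l(3)73Ah. It ranked at 2.50%, 2.32%, 1.72% and 3.90% in controls 1 and 2 and mutants 1 and 2 (difference 0.395 points, exact permutation test, p = 1; -0.694 without mutant 2). Between tra and spd-2, a centrosome gene 156 bp away, 3L:16591064-16591152 was called in control 1 at 36.7% and in mutant 2 at 67.2%, and not in control 2 or mutant 1.

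The last gene of the cascade, dsx (3R:7924323-7967408), was the most open of the 7 and carried 15 regions, 9 of them called in all 4 libraries. The strongest, 3R:7947228-7947733, begins 22905 bp from the left end of the gene and ranked at 0.673% in control 1, 0.841% in control 2, 0.661% in mutant 1 and 2.38% in mutant 2. The authors' fold enrichments there were 21.6, 21.1, 21.8 and 17.0. The next, 3R:7963488-7963821, ranked at 0.888%, 1.37%, 0.917% and 1.86%, and 3R:7966959-7967287, whose summit lies 242 bp inside the right end in every library, at 2.19%, 2.28%, 2.51% and 3.83%. Controls and mutants overlapped at the former pair. At the third both mutants were weaker, by 0.934 points (exact permutation test, p = 0.3333). At 3R:7947228-7947733 the difference of group means was 0.765 points (exact permutation test, p = 1). Taking the best peak of the gene in each library, which in mutant 2 is that of 3R:7963488-7963821, the difference was 0.503 points (exact permutation test, p = 1), turning to -0.0966 without mutant 2 and to -0.0145 when ranked by fold enrichment.

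The remaining dsx regions differed more between libraries. Just past the right end, 3R:7967777-7968234 ranked at 12.8%, 14.96% and 12.2% in controls 1 and 2 and mutant 2 but at 76.9% in mutant 1, where the pileup was 26 fragments against 158, 125 and 93. The mutant 1 peak covers only the right part of the region, with its summit 758 bp past the gene against 435 to 440 bp in the other libraries. The region 3R:7933617-7933819 had the widest separation of the groups, with 47.3% and 54.2% in the controls and 72.05% and 91.8% in mutants 1 and 2 (31.2 points, exact permutation test, p = 0.3333). At 3R:7936879-7937021 and 3R:7944643-7944898 the mutant mean was the stronger (differences of -1.68 and -1.42 points), with overlapping groups. The region 3R:7966413-7966712 ranked at 9.77% in control 1 and between 13.0% and 13.2% in the other libraries, and 3R:7962802-7963027 at 17.6%, 16.2%, 19.5% and 21.1% in controls 1 and 2 and mutants 1 and 2 (3.41 points, exact permutation test, p = 0.3333). Another region, 3R:7930190-7930634, was called in every library but control 1, with its best rank, 41.1%, in mutant 1. The other 5 regions were called in 1 to 3 libraries each, at ranks from 27.9% to 99.7%, and 3R:7938593-7938650 was the 1 of them called in a lone library, mutant 2.

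**Figure D3:**
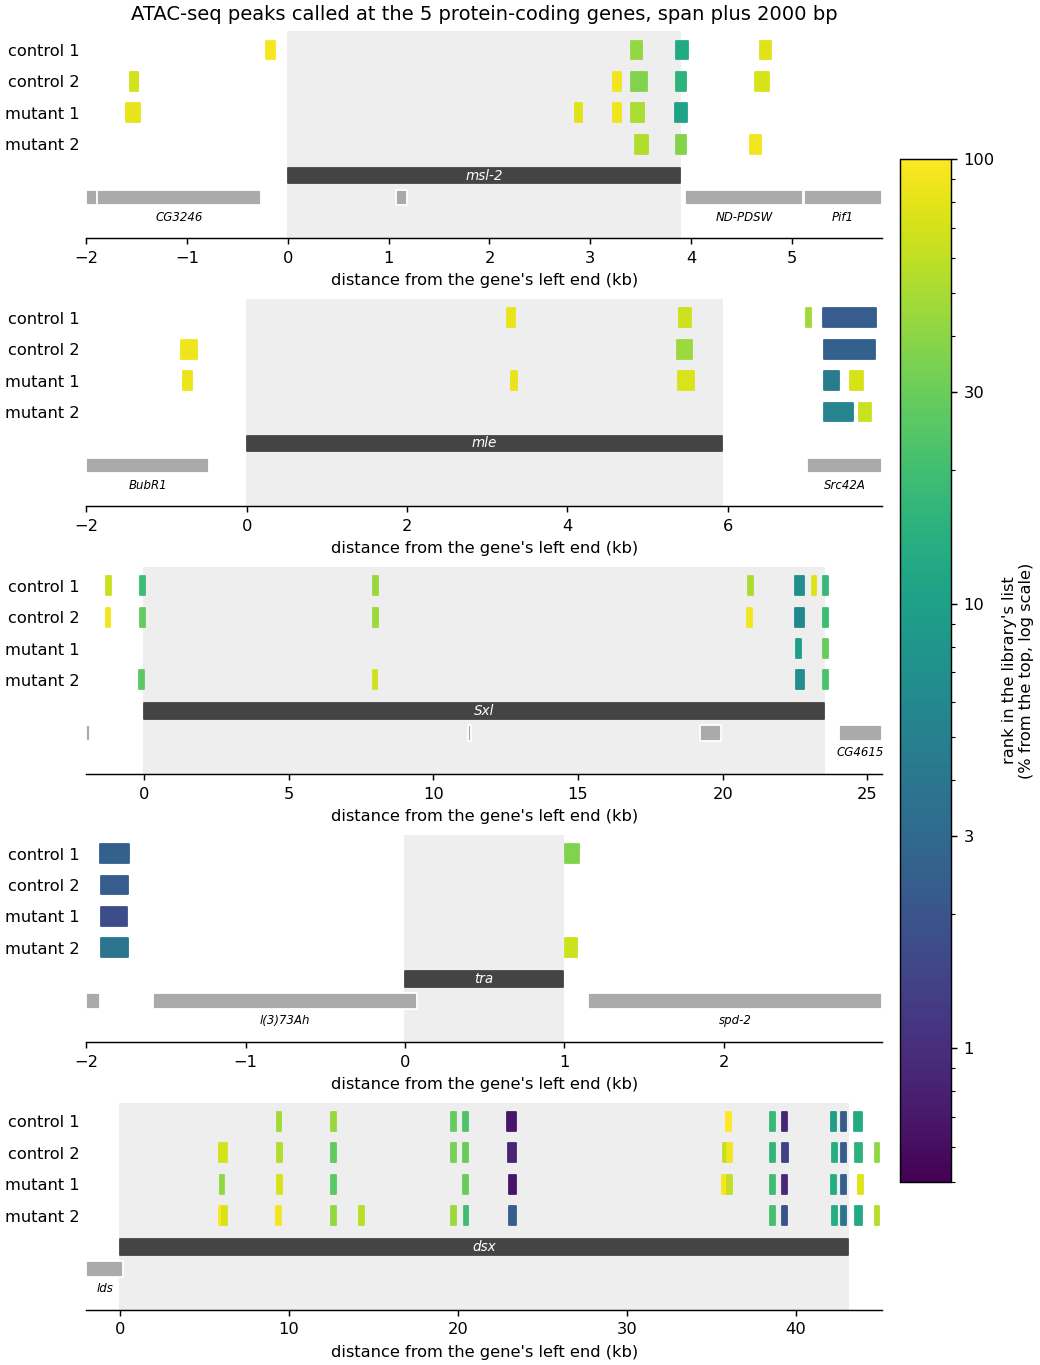
Peaks called at msl-2, mle, Sxl, tra and dsx in each library, by distance in kb from the left end of each gene (grey area) with neighbouring genes as grey bars; colour gives the rank in the library's own list (log scale, dark is strong), and very narrow peaks are drawn wider so that they can be seen. The darkest bars at mle and tra lie outside those genes, those of dsx inside it, and mutant 1 has 2 peaks at Sxl against 7, 6 and 4 in the other libraries.

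**Figure D4:**
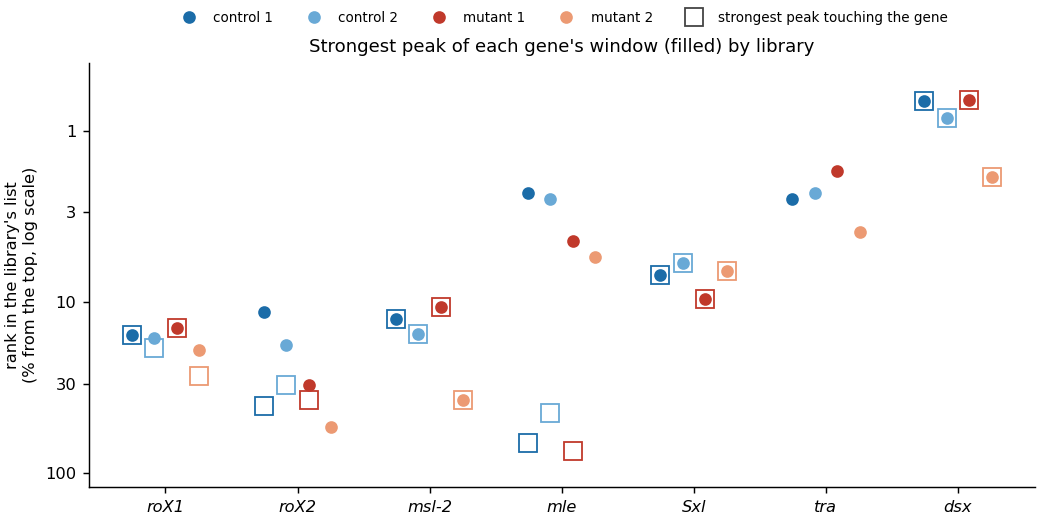
Rank of the strongest peak in the window of each gene (filled circles) and of the strongest peak touching the gene (open squares), in percent of the library's own list on a log axis with strong peaks at the top; each symbol is 1 library. The strongest peak lies outside the gene in every library at mle, tra and roX2, and in control 2 and mutant 2 at roX1. No peak touches tra, and in mutant 2 no peak touches roX2 or mle.

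By level, the strongest peak of the window was highest at dsx in all 4 libraries, followed by tra and mle in either order and then by Sxl, with roX2 last in 3 of the 4. In control 1 roX2 (11.4%) ranked above msl-2 (12.6%) and roX1 (15.5%), and in the mutants below roX1 (30.3% against 14.1% and 53.8% against 19.1%). The neighbours tra and mle changed places between control 1 (2.50% and 2.31%) and control 2 (2.32% and 2.51%), and the ranges of msl-2 and roX1 over the 4 libraries overlapped. These levels depend on the flank: counting only peaks that touch the gene, 4 of the 7 genes (roX1, msl-2, Sxl and dsx) had a peak in all 4 libraries, against 7 of 7 with 2000 bp on either side. With that flank, 61.2% of all genes had a peak in all 4 libraries, and longer genes have a wider window.

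Counted together, the windows of the 7 genes held 33 peaks in each control, 30 in mutant 1 and 28 in mutant 2. The means were 33 ± 0 and 29 ± 1.41 (SD, n = 2), a difference of -4 peaks (exact permutation test, p = 0.3333, the smallest possible). As a share of the list these were 0.109% for control 1, 0.107% for control 2, 0.115% for mutant 1 and 0.104% for mutant 2, so the shares overlapped.

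Of the 42 regions, 18 (42.9%) were called in all 4 libraries, against 30.3% of all regions of the main arms. Control-only regions numbered 2 (4.76%, background 5.93%) and mutant-only regions 0 (background 1.76%). Control-only regions numbered 2 without control 1, 6 without control 2, 5 without mutant 1 and 6 without mutant 2. Mutant-only regions numbered 0, 1, 1 and 2 in the same order. Fewer libraries have to agree in each of these cases, and the cause of the shifts was not tested. With lists of equal length no region was control-only. A further 7 regions were called in 1 control and 1 mutant, and 7 in 1 library. Of the 8 regions called in 3 libraries, 4 lacked a call in mutant 1, 3 in mutant 2 and 1 in control 1, and over the main arms 59.0% of such regions lacked it in mutant 1. Of the calls missing at the 42 regions, 13 were in mutant 1 and 16 in mutant 2, against 9 in each control. The mean enrichment where a region was called, scaled to the background of the library without a call, exceeded the smallest pileup called at that background in 12 of the 13 and 15 of the 16, and in all 9 of each control. Some exceeded it narrowly, as at X:7097672-7097744 in Sxl with 14.8 fragments against 14 in mutant 1, and the mean comes only from libraries that called the region. Each called peak had already passed a similar bar in its own library, so such means would mostly exceed it. The comparison therefore does not measure the part of depth in the missing calls, which was not tested.

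Among the 18 regions of all 4 libraries, 8 (44.4%) were weaker in rank in both mutants than in both controls, 0 were stronger in both, and 10 overlapped. Over all 13474 such regions 33.6% were weaker in both mutants and 13.9% stronger. The median difference between the group means was 2.81 points for the 18 regions and 2.43 points for all.

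**Figure D5:**
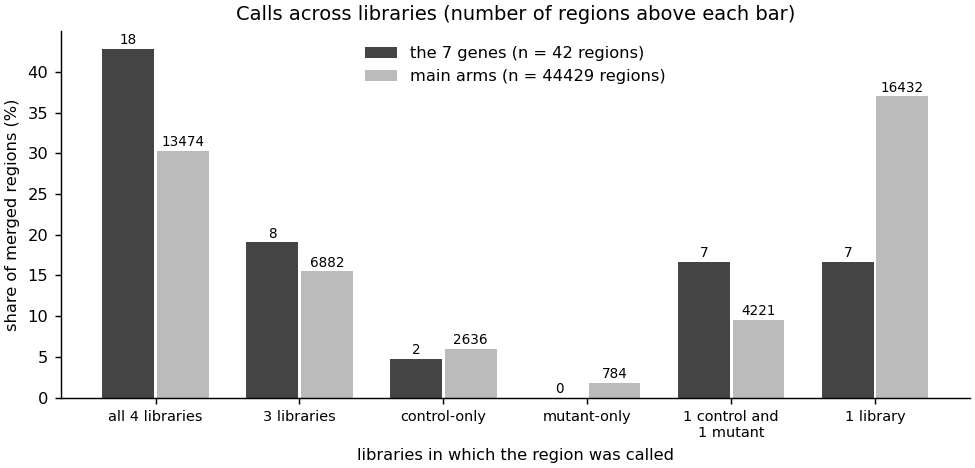
Share of merged regions by the libraries in which they were called, for the 42 regions of the 7 genes (dark) and the 44429 regions of the main arms (light), with the number of regions above each bar. Regions called in all 4 libraries make up 42.9% and 30.3%, and control-only regions 4.76% and 5.93%.

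The other genes of the pathway numbered 35, and within the same window 29 of them (82.9%) were called in every library, against 61.2% of all genes. The share was similar, 23 of 29 (79.3%), for the cell type marker genes described below, so it was not particular to the pathway. By role these were 6 of 6 complex subunits and cofactors, 2 of 2 repressors of msl-2, 5 of 8 genes of X counting, 7 of 8 of Sxl splicing, 6 of 6 of the tra and dsx branch and 3 of 5 dsx targets. The best mean ranks in each role were those of Trl (2.59%), which encodes GAGA factor, Unr (1.29%), the partner of Sxl on msl-2 mRNA, gro (0.763%), a corepressor, Mettl3 (1.67%), an RNA methyltransferase, fru (2.86%), which encodes male-specific factors of the nervous system, and bab2 (1.33%), a regulator of pigmentation.

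Of the 6 pathway genes without a peak in some library, 3 are elements counted on the X in the early embryo. The gene sc had no peak in any library, sisA only in mutant 1 (86.4%), and run in control 2 (56.7%) and mutant 2 (95.7%). The yolk protein gene Yp1 was called only in mutant 1 (92.7%), and its neighbour Yp2 in control 1 (34.3%) and mutant 2 (30.7%). The gene of the methyltransferase subunit Mettl14 was called in control 1 (85.2%) and control 2 (70.3%) and in neither mutant, the 1 control-only gene of the 35 (background 1.82%), and 0 were mutant-only (background 0.565%). The strongest peak was weaker in both mutants than in both controls in 20 of the 29 genes (68.97%, background 46.0%) and stronger in 3 (background 6.3%). Among the 23 cell type marker genes called in every library it was weaker in 13 (56.5%) and stronger in 3.

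Peaks on the Y chromosome were called in all 4 libraries, as was a region in the window of each roX gene. For roX2 that shared region lies outside the gene and overlaps nod, and no peak of mutant 2 touched roX2. Y peaks numbered 938, 846, 638 and 871 in controls 1 and 2 and mutants 1 and 2, or 3.10%, 2.75%, 2.44% and 3.24% of the list. The group means, 2.92% ± 0.246 and 2.84% ± 0.568 (SD, n = 2), differed by less than the spread (exact permutation test, p = 1), and the direction turned without mutant 1 (0.319 points) or control 1 (0.0905 points). Of 1149 merged Y regions, 455 (39.6%) had a peak in all 4 libraries. The strongest Y peak ranked at 0.0066%, 0.0097%, 0.0038% and 0.0037% in controls 1 and 2 and mutants 1 and 2. The lists do not show how uniquely the reads of a peak map, so whether these peaks come from the Y alone was not tested.

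By share of the list, the Y did not order the libraries as the roX sites did. Mutant 2 had the highest Y share and the weakest rank at the inner roX1 region and past roX2. Mutant 1 had the lowest Y share, the strongest rank inside roX1 and the weakest at the right end of roX1. By strength the Y ordered the libraries otherwise. The median Y peak ranked at 56.1% in control 1, 52.0% in control 2, 37.4% in mutant 1 and 51.0% in mutant 2. Y peaks in the top 10% of the list numbered 31, 32, 56 and 46 in the same order. Mutant 1, lowest in Y share, thus had the strongest median Y rank. The X share of the list ran in the same order as the Y share at its top, with 16.8% in mutant 2 and 16.4% in control 1, against 15.4% in mutant 1 and 14.95% in control 2. These lists do not give the proportion of males in a library: a site open in fewer nuclei and a site less open in each nucleus cannot be told apart, and a list of peaks holds no read counts over X and autosomes.

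The labelled tissue was checked by the same windows. All 10 flight muscle genes listed had a peak in all 4 libraries, with a median mean rank of 5.67%, led by up (0.0846%), which encodes a troponin, against 61.2% of all genes with a peak in all 4. Their ranks were wide apart, with bt at a mean of 21.2% and TpnC4, a troponin C gene of flight muscle, at 59.0%. Genes that mark other cells were called too, in all 4 libraries at 3 of 4 neuronal, 2 of 3 fat body, 2 of 3 blood cell, 2 of 2 tracheal, 2 of 2 epidermal and 2 of 2 female germ line genes. Some of these ranked as high as muscle genes: the mean was 0.715% for vas, a germ line helicase gene, 4.26% for the tracheal trh, 4.31% for the epidermal grh and 6.71% for the neuronal elav. None of the 3 male germ line genes was called in all 4 libraries: bam lacked a peak in mutant 1, aly was called only in mutant 2 and can in no library. Others of the same lists ranked lower, such as otu (53.0%), btl (48.0%), ple (53.7%) and brp (63.9%). The median mean rank of the other lists was weaker than that of muscle, from 23.8% for fat body to 47.7% for blood cells. These medians cover only genes called in all 4 libraries, 2 of 3 for fat body and for blood cells, and the male germ line list has none. Muscle thus ranked higher by the median, while single genes of the other lists, which hold 2 to 4 genes each, overlapped it. Whether the strongest peak of a marker window lies in that gene or in a neighbouring or overlapping one was not examined. An open site in bulk nuclei does not show which cells carry it, and the part of other cell types in the roX and dsx sites was not tested.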

How the data were processed

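The submitters' processing notes name the build BDGP6 and the tools bcl2fastq 2.20, MultiQC 1.5, cutadapt 2.3, Bowtie2 2.4.1, Picard and MACS2 2.2.7.1, without their roles. Whether duplicates were removed or reads shifted for the transposase cut is not given in the sources used here, and a shift would move borders by a few bases. The authors deposited 1 peak list per library, called without pooling; the lists have 10 columns and no header. Each deposited peak has a fold enrichment (a ratio), a −log10 p and a −log10 q against its own library's background, and a score that was not used.

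Gene spans came from RefSeq's Release 6 plus ISO1 MT table, the assembly that BDGP6 names; no sequence was used. Ranks, merged regions and exact permutation tests were computed with Python 3.11.15, pandas 2.3.3 and scipy 1.17.1. Summit pileup x and local background b were solved from fold = (x + 1)/(b + 1) and the Poisson −log10 p, for the 98.7% to 99.8% of peaks with −log10 p up to 250; the largest misfit was 0.000896. Scripts were tested on simulated data. Groups and replicate numbers came from the titles. Genes, lists and rules were chosen with earlier results of these data known. Named are the 7 genes with their regions, pathway genes lacking a call or ranked best in their role, and the 5 genes nearest to each roX gene in pattern; 29 of 30 marker symbols matched. Regions or genes are not replicates, so their shares describe these 4 libraries.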

Additional observations from a re-analysis of the deposited data

How the results depend on the processing

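Of 118 alternative values, 97 kept their direction or stayed within 1.5 times the count, 12 counts moved further and 9 differences reversed. The alternatives for the Y, for the 5 protein-coding genes and for fixed roX1 regions were chosen after seeing the data. Control-only regions fell from 2 to 1 at a −log10 q minimum of 5 or without the flank, and to 0 with lists of equal length. With no flank, 4 of the 7 genes and 18 of the pathway genes had a peak in all 4 libraries, since the windows were shorter. A reciprocal overlap of 50% gave 1 mutant-only region. The cause of the other shifts was not tested. The roX1 difference was -1.59 points at equal length, and 3.11 and 12.8 with its inner or right-end region held fixed, the Y difference 0.0657 points at a −log10 q minimum of 5, and the dsx difference -0.0145 by fold enrichment.

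With 1 library left out, there were 2 to 6 control-only, 0 to 2 mutant-only and 18 to 22 fully shared regions, and the difference in peaks ranged from -5 to -3. The differences in rank ranged from -1.68 to 3.26 (roX1), 15.7 to 39.2 (roX2), -3.33 to 23.3 (msl-2), 1.99 to 3.03 (mle), 0.135 to 3.14 (Sxl), -0.694 to 1.48 (tra) and -0.0966 to 1.10 (dsx), and that of the Y share from -0.485 to 0.319.

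Blocked by replicate number, the paired differences equalled the unpaired ones (-4 peaks, 0.79 and 27.5 points for roX1 and roX2, -0.0834 for the Y share), and 2 pairs cannot give a sign-flip p below 0.5. Over all regions the correlation of the within-group differences in calls was -0.0960. A single correlation from 4 libraries cannot show whether same-numbered libraries were prepared together.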
